A study of Mus musculus with 9 samples.

Results

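The GABA and glycine signaling genes described here are 29 genes for receptor subunits, synthetic enzymes, transporters, the receptor scaffold and the neuronal chloride cotransporters. They were chosen by name and all 29 were found among the 38621 genes of the expression table. Brain RNA was sequenced from 9 male C57BL/6 mice, 3 per group, and the groups are called sham, ICH and feb. ICH mice had 30 μl of their own blood injected into the brain, sham mice are described in the study's methods as injected with saline and in the sample labels as untreated, and feb mice were gavaged with febuxostat, a xanthine oxidase inhibitor, at 50 mg/kg once a day for 5 days before they received the same blood injection. The feb group has no counterpart given febuxostat without ICH, so the drug and its action after blood injection cannot be told apart. The RNA came from brain tissue, and neither the dissected region nor the time after injection is named for these samples.

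GABA is the main inhibitory transmitter of the forebrain, and glycine plays the same part in the brainstem and spinal cord. Both open chloride channels built from several subunits, and the subunits present set where on the neuron a receptor sits and how long its channel conducts. The inward or outward push on chloride is set by cotransporters, transmitter is made by decarboxylation of glutamate or taken up from outside the cell, and transporters on neurons and astrocytes end the signal.

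Values are RPKM, which counts reads on the exons of a gene relative to exon length and sequencing depth, so that levels can be compared between genes. Between 23065757 and 29538009 reads per mouse were counted on genes. Groups were compared with limma on log2(RPKM + 0.1), over 29025 genes that reached an RPKM of 0.1 in 3 or more mice, and 27 of the 29 genes were among them, Gabra6 and Slc6a5 being the exceptions. A gene was called when its unadjusted p was under 0.05 and its fold change over 2, and p-values were adjusted by Benjamini-Hochberg across all 29025 genes. In whole tissue, fewer cells of a type and less RNA per cell cannot be told apart.

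The mouse sham 1 stood furthest from the other 8 in midbrain and hindbrain genes. All 9 genes of a midbrain and hindbrain list (En1, En2, Hoxb2, Hoxb3, Hoxb4, Hoxb5, Gata2, Gata3 and Tal1) were highest there, with a summed RPKM of 17.3. The same sum was 1.62 and 3.75 in the other sham mice, 1.5 to 1.89 in ICH mice and 1.65 to 5.66 in feb mice, the highest of these being feb 2. Hoxb5, which marks the hindbrain, had an RPKM of 3.14 in sham 1 and was at 0 in the other 8 mice. Part of the list was also raised in sham 3 and feb 2. En1 was 1.02 and 1.07 in these mice and Gata3 was 0.563 and 1.61. Apart from sham 1, the remaining mice had at most 0.0864 for En1 and 0.103 for Gata3. Hoxb2, Hoxb3, Hoxb4 and Hoxb5 had at most 2 reads in sham 3 and feb 2. Marker genes shared by all neurons had summed RPKM between 494 and 577 in the 9 mice, and all 6 were detected.

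Glra1, the alpha subunit of the adult glycine receptor of brainstem and spinal cord, lies on the reverse strand of chromosome 11, chr11:55514238-55608198 (GRCm38). On the forward strand the annotated gene Gm12236 runs from 55514846 to 55527715. The 141 bases of its exon between 55514846 and 55514986 fall wholly within the coding part of the last Glra1 exon, which is 56.4% of the 250 bases of Gm12236 and 5.84% of the 2414 exon bases of Glra1. The transcript of Gm12236 is shown because reads from these bases can be assigned to either gene, with the shared bases in capitals.

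Gm12236: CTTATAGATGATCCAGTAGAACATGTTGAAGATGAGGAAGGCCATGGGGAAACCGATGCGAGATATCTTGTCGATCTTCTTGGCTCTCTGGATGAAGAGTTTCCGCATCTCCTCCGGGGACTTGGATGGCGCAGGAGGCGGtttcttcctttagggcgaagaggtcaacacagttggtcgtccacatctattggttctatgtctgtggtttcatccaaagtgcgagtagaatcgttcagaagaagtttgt

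The library kit keeps the strand, but whether strand was used in counting is not stated. Reads on Gm12236 were between 24.8% and 32.9% of those on Glra1 in each of the 9 mice. The RPKM of Gm12236 was 102, 10.4 and 18.8 in sham mice, 7.03, 4.26 and 6.26 in ICH mice, and 14.8, 31.1 and 9.36 in feb mice. Gm12236 was high in the mice in which Glra1 was high, and the 2 genes are not treated here as separate evidence.

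**Figure D1:**
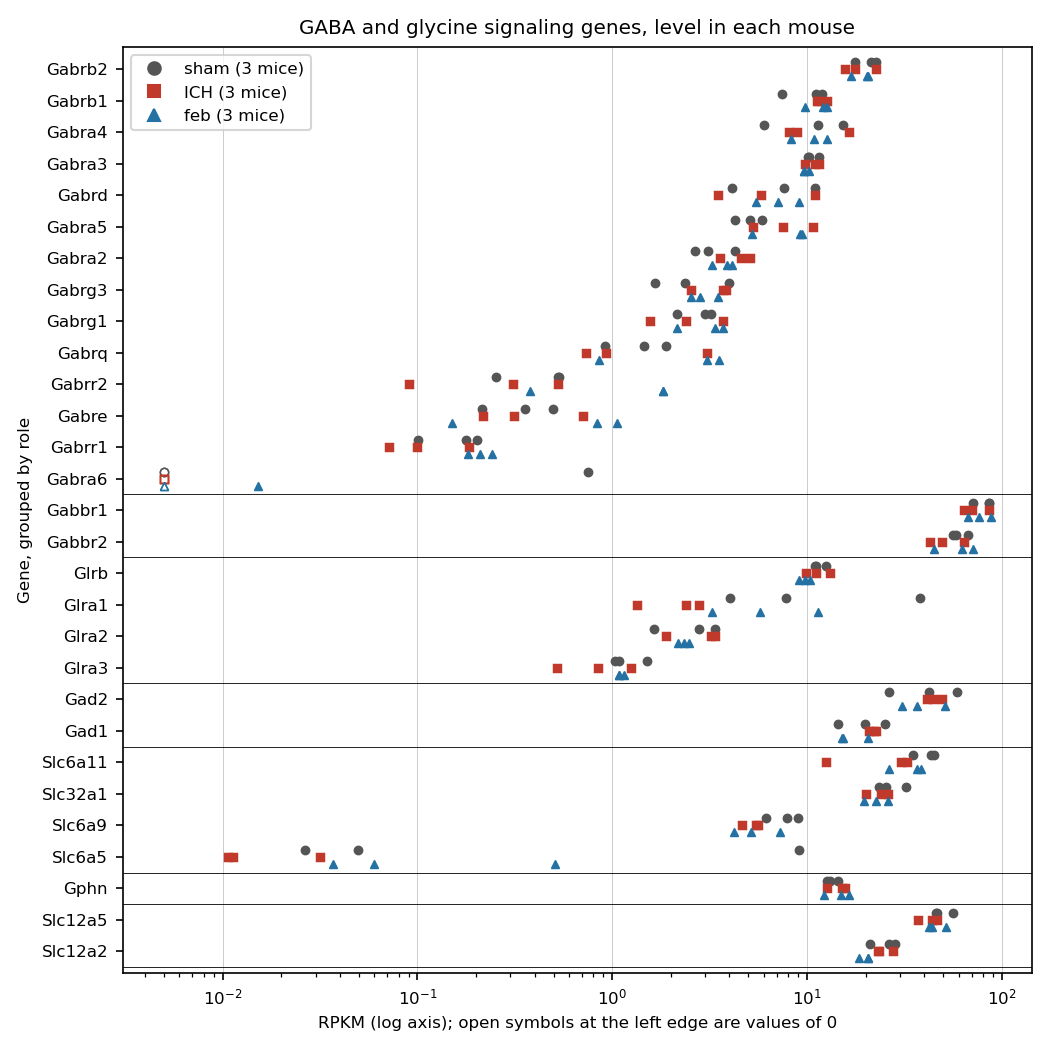
RPKM (log axis) of each of the 29 genes in each of the 9 mice, grouped by role, with sham as grey circles, ICH as red squares and feb as blue triangles. Open symbols at the left edge are values of 0. Most genes have overlapping groups, while Glra1, Slc6a5 and Gabra6 have a sham mouse far to the right.

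By their mean over the 9 mice, 14 of the 29 genes had an RPKM over 10, 11 lay between 1 and 10, and 4 were under 1. The metabotropic GABA-B receptor genes led, with 77.2 for Gabbr1 and 57.2 for Gabbr2. They were followed by Slc12a5, which carries chloride out of mature neurons, at 46.0, Gad2 at 42.4 and Slc6a11 at 33.3. Of the channel subunits, Gabrb2 was highest at 19.5, then Gabrb1 at 11.2, Gabra4 at 10.9, Glrb at 10.9 and Gabra3 at 10.4. The lowest means were those of Gabrr2 at 0.697, Gabre at 0.482, Gabrr1 at 0.163 and Gabra6 at 0.0848. Levels next to each other in this order, such as those of Gabrb1, Gabra4, Glrb and Gabra3, differed by less than the spread between mice.

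How far a gene varied over the mice also differed. The highest value was less than 1.5 times the lowest in 5 genes and less than 2 times in 12. Gabra3, an alpha subunit of the GABA-A receptor, varied least, with a ratio of 1.20, and Gphn, which encodes gephyrin, the scaffold that anchors glycine and GABA-A receptors at synapses, had a ratio of 1.34. The ratio was over 10 in 3 genes, at 20.3 in Gabrr2, 28.4 in Glra1 and 858 in Slc6a5. These ratios include differences between mice of the same group.

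Gabra6 and Slc6a5 were the genes most tied to a single mouse. Gabra6, the alpha subunit made by cerebellar granule cells, had an RPKM of 0.748 in sham 1, from 55 reads, 0.0152 in feb 1, from 1 read, and 0 in the other 7 mice. A count of 0 allows up to 3 reads, which is an RPKM of 0.0429 to 0.0523 in those mice. Of 7 granule cell markers, 4 were highest in sham 1, 2 in sham 3 and 1 in feb 1. Cbln3 was 1.63 and Fat2 0.979 in sham 1, and neither passed 0.0921 in another mouse, but the sum of the 7 was higher in sham 3, at 64.1, than in sham 1, at 50.8.

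Slc6a5, which takes glycine back into the neurons that release it, lies on chromosome 7 (chr7:49910146-49963856). It had an RPKM of 9.10, 0.0266 and 0.0494 in sham mice, 0.0113, 0.0317 and 0.0106 in ICH mice, and 0.0367, 0.506 and 0.0602 in feb mice. The highest value was again in sham 1 and the next in feb 2, the mice with the highest and second highest sum of the midbrain and hindbrain list. Neither gene passed the filter on low values, so no test is given for them.

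**Figure D2:**
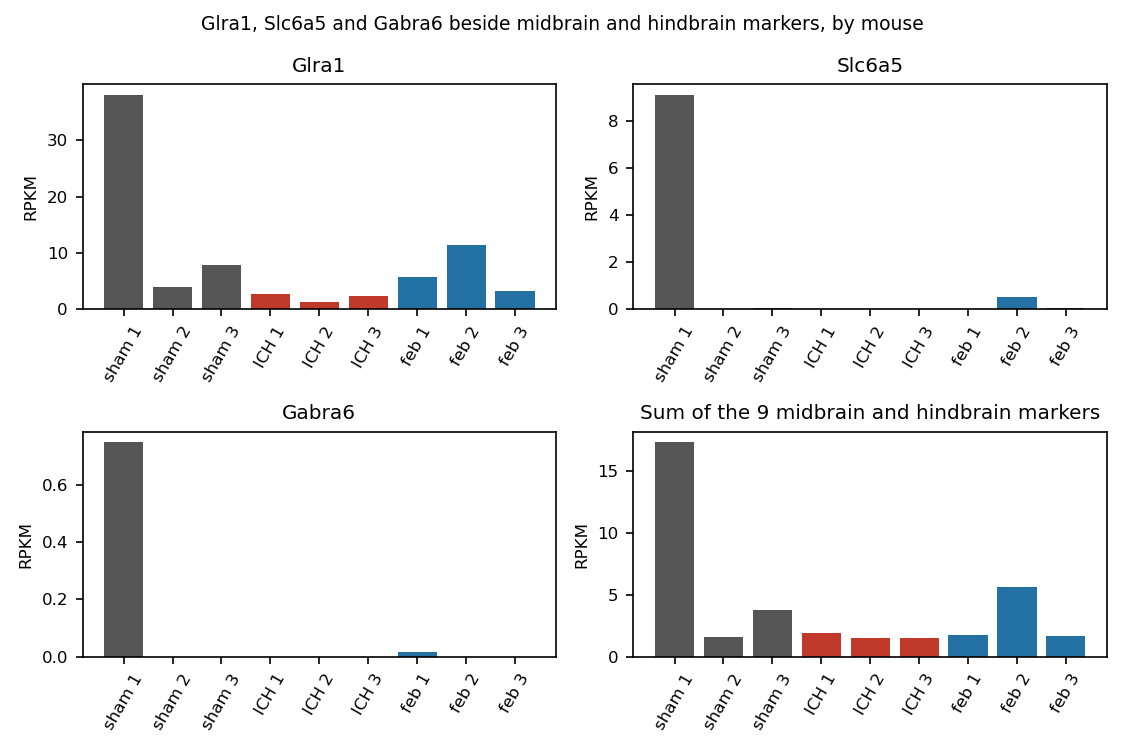
Bars show the RPKM of Glra1, Slc6a5 and Gabra6 and the summed RPKM of the 9 midbrain and hindbrain markers in each mouse, from 0. Sham 1 is the highest bar in all 4 panels, with 38.0, 9.10, 0.748 and 17.3.

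In ICH against sham, which asks what blood injection changed, 1 of the 27 genes tested was called, Glra1, which was lower in the ICH group. Of all genes tested 2.53% were called, 1.46% higher and 1.07% lower. At an unadjusted p under 0.05 there were 3 of the 27, all lower in ICH: Glra1 and the transporters Slc6a9 and Slc6a11. The background was 12.3% of all genes, 7.88% higher and 4.42% lower. None of the 27 had an adjusted p under 0.05 by limma (lowest 0.353), a level reached by 0.0241% of all genes. The median log2 fold change was -0.07 over the 27 genes and 0.08 over all genes tested, with 11 higher and 16 lower. In 3 genes every ICH mouse was below every sham mouse, against 6.22% of all genes, and in none was every ICH mouse above, against 13.2%.

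Glra1 had an RPKM of 38.0, 4.04 and 7.84 in sham mice and 2.79, 1.34 and 2.40 in ICH mice, from 85 reads in the lowest to 2712 in the highest. All ICH mice were below all sham mice, and sham 1 was far above both other sham mice. The means were 16.6 ± 18.6 in sham and 2.18 ± 0.752 in ICH (SD, n = 3 each). The log2 fold change was -2.30 (SE 0.77, limma, unadjusted p = 0.0160, adjusted p = 0.353). Without sham 1 it was -1.39, with an unadjusted p of 0.0335 and an adjusted p of 0.697, and without ICH 2 it was -2.00 and no longer passed the unadjusted threshold, at an unadjusted p = 0.0551 (limma). The midbrain and hindbrain markers were lower on average in ICH for 9 of 9 genes, and all 9 were highest in sham 1. En1, En2 and Hoxb3 were the 3 without overlap, against 6.22% of all genes. Hoxb3 had 1 read in sham 2 and 2 in sham 3. In sham 2 and sham 3 En1 was 0.0729 and 1.02, against at most 0.0437 in ICH mice. Gata2 was 0.751 and 0.903 there, against 1.05, 0.803 and 0.799. Leaving out sham 1 thus keeps sham 3, which was raised in part of the list. The part of these markers in the result was not tested. In Gm12236, which shares bases with Glra1, the log2 fold change was -2.23 (SE 0.77, limma, adjusted p = 0.359).

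The other glycine receptor subunits did not pass the threshold in this comparison. Glra2, the alpha subunit of immature neurons, was 1.63, 3.38 and 2.79 in sham mice and 3.37, 1.88 and 3.21 in ICH mice, and was lowest in sham 1, where Glra1 was highest. Glra3, an alpha subunit of spinal and some brain neurons, was 1.5, 1.03 and 1.09 against 1.25, 0.846 and 0.523. Glrb, the beta subunit that joins the receptor to gephyrin, was steadier, at 11.5 ± 0.866 in sham and 11.4 ± 1.67 in ICH (SD, n = 3 each).

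Slc6a9 encodes the glycine transporter found mainly on glia, on chromosome 4 (chr4:117834506-117875198). Its RPKM was 8.97, 6.15 and 7.91 in sham mice and 5.62, 4.66 and 5.47 in ICH mice, so the groups did not overlap. The means were 7.68 ± 1.43 and 5.25 ± 0.518 (SD, n = 3 each), with a log2 fold change of -0.53 (SE 0.21, limma, adjusted p = 0.388). The unadjusted p of 0.0339 rose over 0.05 when sham 1, sham 3, ICH 2 or ICH 3 was left out, and without sham 1 the log2 fold change was -0.41 (limma). The highest values of the 9 mice were in sham 1 (8.97), sham 3 (7.91) and feb 2 (7.27). These mice also had the highest sums of the midbrain and hindbrain list, and the part of those markers was not tested.

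Exons of 3 genes on the opposite strand lie over those of Slc6a9, with B4galt2 sharing 46 bases. Ccdc24 shares 1429 bases, 27.8% of the exon length of Slc6a9, and Gm17114 lies within it over its whole 511 bases. For Ccdc24 and Gm17114 the log2 fold changes were -0.52 (SE 0.23, adjusted p = 0.409) and -0.65 (SE 0.29, adjusted p = 0.408), so the level of Slc6a9 is uncertain if strand was not used.

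Slc6a11, the GABA transporter found mainly on astrocytes, had an RPKM of 45.1, 34.8 and 43.2 in sham mice and 32.5, 12.5 and 30.4 in ICH mice. Every ICH mouse was below every sham mouse, and ICH 2 was far below the rest. The means were 41.0 ± 5.46 and 25.1 ± 11 (SD, n = 3 each), with a log2 fold change of -0.82 (SE 0.34, limma, unadjusted p = 0.0399, adjusted p = 0.392). Without ICH 2 the log2 fold change was -0.37 with an unadjusted p of 0.0738 (limma), and the threshold was also missed without sham 1, where it was -0.74, and without sham 3, feb 1 or feb 2, in a fit of the 6 mice alone and without a trend.

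ICH 2 had the lowest value of the 9 mice in 10 of the 27 genes, Slc6a11, Glra1, Gabbr1, Gabbr2 and Slc12a5 among them. It also had the lowest sum of the 5 thalamus markers, 22.4, against 56.4 and 118 in the other ICH mice, 91.5 to 158 in sham and 61.0 to 156 in feb. All 5 thalamus markers had lower means in ICH than in sham, 1 of them without overlap. The 8 astrocyte markers summed to 1032 in ICH 2 and to 461 to 614 in the other 8 mice. Gfap, a marker of reactive astrocytes, made up 573 of the sum in ICH 2. The other markers went different ways there. Gja1, at 50.4, and Aldoc, at 77.1, were lowest of the 9 mice in ICH 2, while Aldh1l1, at 22.3, was highest. Aqp4 and Sox9, at 48.2 and 16.1 in ICH 2, were higher only in sham 1. Slc1a2 and Slc1a3 were neither highest nor lowest in ICH 2. The part of these in the lower Slc6a11 was not tested.

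Among the GABA-A subunits no gene passed the threshold in ICH against sham. The 3 subunits with the largest differences were Gabrr2, with a log2 fold change of -0.51 (SE 0.63), Gabra5, the alpha subunit of extrasynaptic receptors best known from hippocampus, with 0.57 (SE 0.30), and Gabra2, found at synapses on the axon start of cortical neurons, with 0.41 (SE 0.20). Gabra5 was 5.90, 4.27 and 5.12 in sham mice and 7.57, 10.8 and 5.26 in ICH mice, which overlap. Gabra2 was 2.66, 4.26 and 3.10 against 4.59, 5.08 and 3.58, which overlap as well. Gabrb2, the most abundant channel subunit here, was 20.5 ± 2.55 in sham and 18.7 ± 3.49 in ICH (SD, n = 3 each).

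The GABA-synthesizing enzymes differed by less than the spread between sham mice. Gad2 had 26.3, 59.2 and 42.1 in sham mice and 49.4, 41.2 and 44.4 in ICH mice. Gad1 had 14.5, 25.1 and 19.9 against 22.2, 20.8 and 22.5. In both genes sham 1 was the lowest of the 9 mice, and the ICH values lay within the sham range. The 10 inhibitory neuron markers summed to 237 to 250 in sham and 250 to 279 in ICH. Of them, Dlx1, Dlx2, Dlx5, Dlx6 and Lhx6, genes of forebrain interneurons, were lowest of the 9 mice in sham 1. Dlx5 was 0.359 there, against 6.44 and 2.69 in the other sham mice. Pvalb, by contrast, was highest of the 9 mice in sham 1, at 63.3. Sst, Vip, Npy and Calb2 were neither lowest nor highest there. The 7 striatal neuron markers summed to 44.8, 333 and 119 in sham and to 149, 251 and 336 in ICH. The sum of these markers was lowest of the 9 mice in sham 1. The part of these lists in the Gad1 and Gad2 levels was not tested. Slc32a1, which loads GABA and glycine into vesicles, was 27 ± 4.62 in sham and 23.4 ± 2.99 in ICH (SD, n = 3 each), and 24.9% of its exon length is shared with Gm14205 on the opposite strand.

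**Figure D3:**
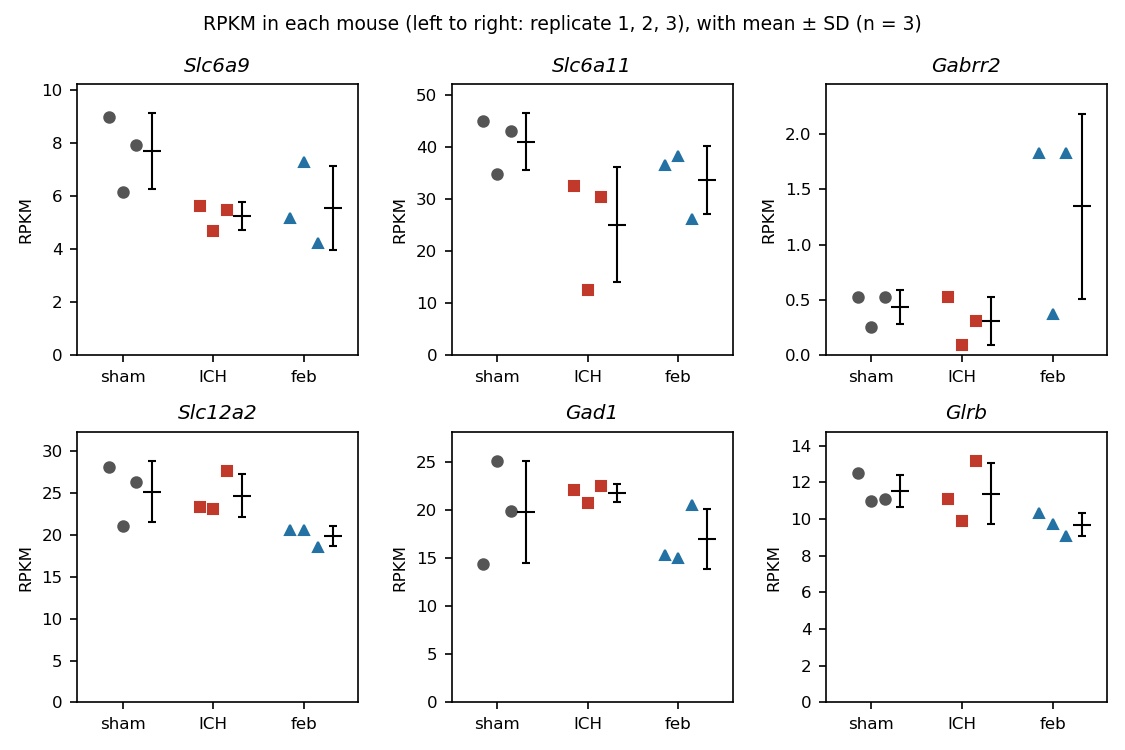
RPKM of Slc6a9, Slc6a11, Gabrr2, Slc12a2, Gad1 and Glrb in each mouse, from 0, with the mean ± SD of the 3 mice beside each group. Slc6a9 and Slc6a11 are lower in all ICH mice than in all sham mice, and Slc12a2 is lower in all feb mice than in all other mice.

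In feb against ICH, which asks what febuxostat changed in mice with ICH, 1 of the 27 genes was called, Gabrr2, which was higher in the feb group. Of all genes 2.43% were called, 1.38% higher and 1.05% lower. At an unadjusted p under 0.05 there were 2 genes, Gabrr2 higher and Slc12a2 lower, against 11.1% of all genes, 4.90% higher and 6.16% lower. None of the 27 had an adjusted p under 0.05 by limma (lowest 0.387), against 0.00689% of all genes. The median log2 fold change was 0.05 over the 27 genes and -0.01 over all, with 16 higher and 11 lower. Every feb mouse was above every ICH mouse in 1 gene, Glra1, against 7.04% of all genes, and below in 2 genes, Slc12a2 and Gad1, against 10.1%.

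Gabrr2 encodes a rho subunit, which forms GABA channels best known from the retina, and lies on chromosome 4 (chr4:33062999-33095865). Its RPKM was 0.524, 0.0903 and 0.308 in ICH mice, 1.83, 0.376 and 1.83 in feb mice, and 0.531, 0.254 and 0.524 in sham mice, from 5 to 102 reads. Feb 1 and feb 3 were above all other mice, while feb 2 lay within the range of the ICH and sham mice. The means were 0.308 ± 0.217 in ICH and 1.35 ± 0.840 in feb (SD, n = 3 each). The log2 fold change was 1.73 (SE 0.63, limma, unadjusted p = 0.0228, adjusted p = 0.387). It fell to 1.26 without ICH 2, 1.40 without feb 1 and 1.39 without feb 3, where the threshold was missed, and without sham 1 it was 1.73 (limma, unadjusted p = 0.0310). With a pseudocount of 1 the change was under 2-fold, at 0.78 on the log2 scale, and the gene was not called.

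The mice feb 1 and feb 3 were also high in other rare GABA-A subunits and in some hypothalamic peptides, and so was ICH 1. Gabrq, the theta subunit, was 3.51, 0.851 and 3.08 in feb mice and 3.08, 0.732 and 0.927 in ICH mice. Gabre, the epsilon subunit, was 1.05, 0.151 and 0.833 against 0.707, 0.217 and 0.314. Both subunits are known from hypothalamus, and their groups overlapped. In ICH 1 the peptide genes Avp, at 57.8, and Oxt, at 56.1, were the highest of the 9 mice. Agrp was 2.26 and Gabrr2 was 0.524 in that mouse, so high subunits and peptides were also found without high Gabrr2.

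The 6 hypothalamus markers (Avp, Oxt, Pmch, Hcrt, Agrp and Pomc) summed to 214, 12.1 and 161 in feb mice, 169, 70.0 and 8.06 in ICH mice, and 33.6, 11.5 and 109 in sham mice. Agrp, from neurons of the arcuate nucleus, was 18.0 in feb 1 and 12.2 in feb 3, and between 1.5 and 3.95 in the other 7 mice. Of the 6 markers 5 had higher mean RPKM in feb than in ICH, 1 of them, Agrp, without overlap. On the log2 scale of the test Oxt was lower in feb, with a log2 fold change of -1.33 (SE 2.39), Avp was at 0.04 (SE 2.45), and Pomc was 4.73 in feb 1 and 3.79 in feb 3, below several other mice. Their part in the level of Gabrr2 was not tested. Gabrr1, a rho subunit gene that begins 36.7 kb after the end of Gabrr2, had 4 to 14 reads in each mouse, and its log2 fold change was 0.54 (SE 0.30).

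Slc12a2, on chromosome 18, encodes the cotransporter that brings chloride into cells and is also found in choroid plexus epithelium. Its RPKM was 28.2, 21.1 and 26.4 in sham mice, 23.3, 23.1 and 27.7 in ICH mice, and 20.6, 20.6 and 18.6 in feb mice. All feb mice were below all ICH mice and all sham mice, although sham 2 was close to the feb range. The means were 24.7 ± 2.58 in ICH and 19.9 ± 1.17 in feb (SD, n = 3 each), with a log2 fold change of -0.31 (SE 0.12, limma, unadjusted p = 0.0345, adjusted p = 0.416). The threshold was missed without ICH 3, feb 1 or feb 3, where the log2 fold change was between -0.33 and -0.22, and it was met without sham 1 at an unadjusted p of 0.0289 (limma). It was also missed with equal medians and without a trend.

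Choroid plexus genes differed in the same comparison. All 8 choroid plexus markers were lower in every feb mouse than in every ICH mouse, with sums of 30.6 to 88.4 in feb, 458 to 967 in ICH and 365 to 1035 in sham, and none of the 8 was at 0 in any mouse. Ttr, which encodes transthyretin, made up most of these sums. Their part in the lower Slc12a2 was not tested.

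Slc12a5, the chloride extruder, was 42.5 ± 5.02 in ICH and 45.8 ± 5.06 in feb (SD, n = 3 each). The ratio of Slc12a5 to Slc12a2 was 1.98, 2.21 and 1.75 in sham mice, 1.89, 1.60 and 1.69 in ICH mice and 2.12, 2.5 and 2.27 in feb mice. This ratio of extruder to importer was higher in each feb mouse than in each ICH mouse, while feb and sham mice overlapped. Slc12a5 itself overlapped between feb and ICH, so the ratio is not separate evidence from the lower Slc12a2. It is a ratio of whole tissue, not of neurons. The ratio was chosen after the values were seen, so no test is given. With 3 mice against 3, an exact permutation test could not go below p = 0.1 for any single value.

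Glra1 was 5.76, 11.4 and 3.27 in feb mice, all above the ICH mice. The log2 fold change from ICH was 1.48 (SE 0.77, limma, unadjusted p = 0.0882, adjusted p = 0.502), which did not pass. Sham 1 enters this test only through the shared estimate of the spread. Without sham 1 the unadjusted p was 0.0161 and the adjusted p 0.373 at the same log2 fold change (limma), so Glra1 was called there. It was also called in the fit of the ICH and feb mice alone. The highest feb value was in feb 2, the mouse with the highest midbrain and hindbrain sum of its group, and the part of those markers was not tested. Gad1, 15.3, 15.1 and 20.6 in feb mice, was just below the ICH range, with a log2 fold change of -0.37 (SE 0.20, limma, adjusted p = 0.510).

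In feb against sham, 0 of the 27 genes were called by limma, against 2.20% of all genes, 1.59% higher and 0.613% lower, and limma with voom on the recovered reads also called 0. With the replicate block 1 was called, Gabrr2, which was higher in feb (log2 fold change 1.22), and without feb 2 there were 2. At an unadjusted p under 0.05 there were 2 genes, Slc12a2 and Slc6a9, both lower in feb, against 8.54% of all genes, 5.63% higher and 2.90% lower. The lowest adjusted p of the 27 was 0.565, and 0.00345% of all genes had an adjusted p under 0.05. Every feb mouse was below every sham mouse in 2 genes, Slc12a2 and Glrb, against 4.90% of all genes, and above in 0, against 7.78%. The median log2 fold change was -0.06 over the 27 genes and 0.05 over all genes tested.

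Slc12a2 had a log2 fold change of -0.33 between feb and sham (SE 0.12, limma, unadjusted p = 0.0258, adjusted p = 0.565), which missed the threshold without sham 1, at -0.24 and unadjusted p = 0.0944, and without sham 3 or feb 3 (limma). The choroid plexus markers were again lower in every feb mouse for 8 of 8 genes. Slc6a9 was 5.15, 7.27 and 4.21 in feb mice, which overlap sham, and its log2 fold change was -0.48 (SE 0.21, limma, unadjusted p = 0.0482, adjusted p = 0.583). Without sham 1 it was -0.36 and unadjusted p = 0.154 (limma), and 11 of 20 alternatives missed the threshold. Glrb was 10.3, 9.72 and 9.09 in feb mice, just below the sham values of 12.5, 11 and 11.1, with a log2 fold change of -0.25 (SE 0.12) that missed the threshold at an unadjusted p of 0.0637 (limma). The comparisons share groups, so the values of a shared group enter both.

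**Figure D4:**
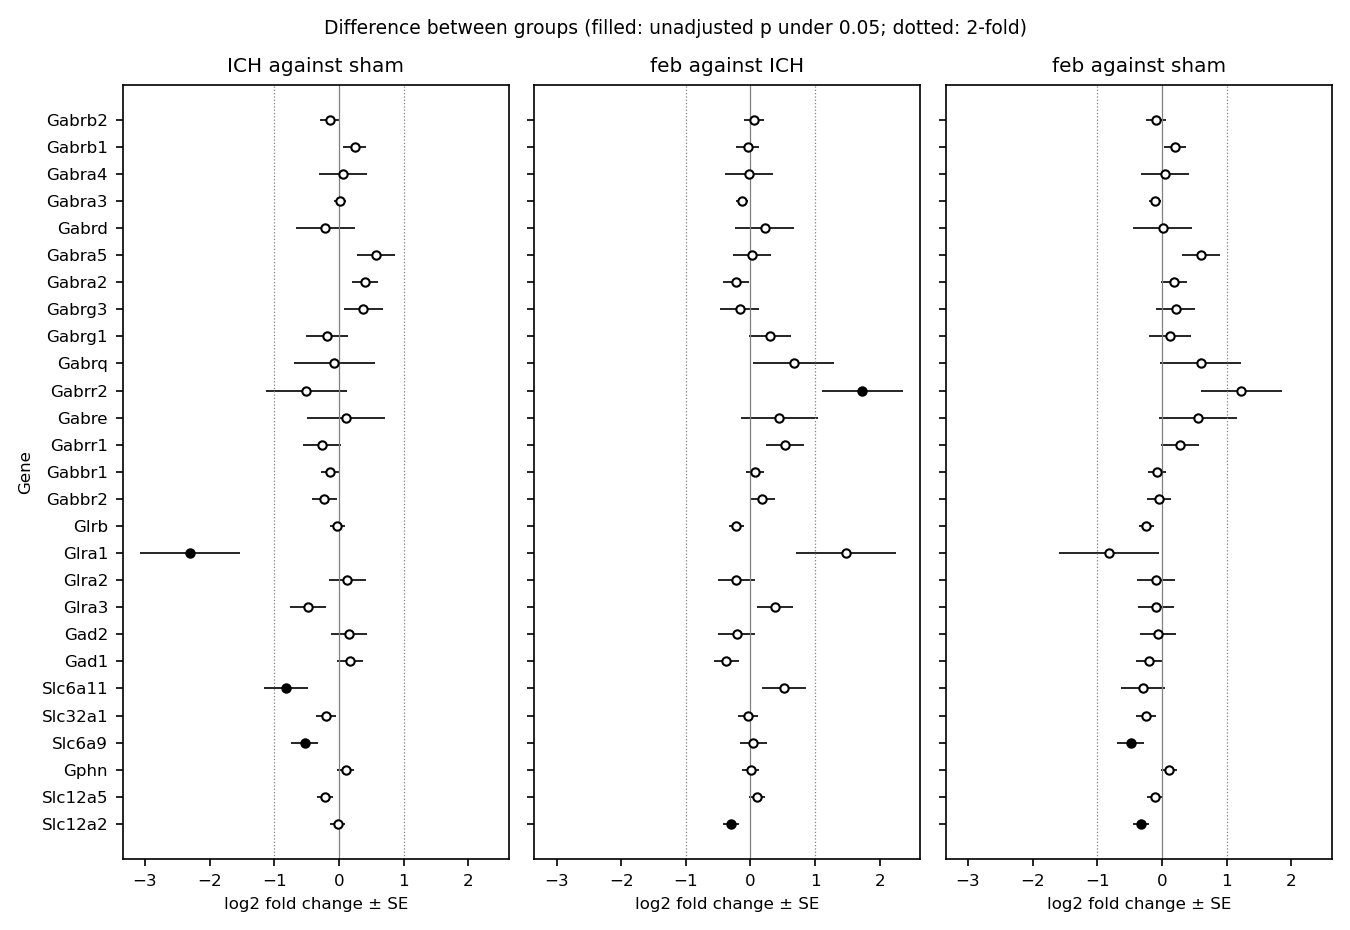
Log2 fold change ± SE (limma) of the 27 genes tested in each of the 3 comparisons, filled where the unadjusted p was under 0.05, with dotted lines at a 2-fold change. Glra1 in ICH against sham (-2.30) and Gabrr2 in feb against ICH (1.73) are the filled points beyond a dotted line.

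The remaining genes did not pass the unadjusted threshold in any of the 3 comparisons. Of the GABA-A subunits, Gabrd, the delta subunit of extrasynaptic receptors, ranged from 3.48 in ICH 2 to 11 in sham 2, and Gabra4, which often pairs with it, from 6.02 in sham 1 to 16.4 in ICH 3. Gabrg1 and Gabrg3, which encode gamma subunits, ranged from 1.56 to 3.73 and from 1.67 to 3.98. Gabra3 was 10.6 ± 0.748, 10.8 ± 0.922 and 9.84 ± 0.352 in the sham, ICH and feb groups (SD, n = 3 each). Gphn was 13.4 ± 0.970, 14.5 ± 1.61 and 14.5 ± 2.13 (SD, n = 3 each).

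The GABA-B genes Gabbr1 and Gabbr2, whose products pair to form the receptor, had group means of 73.7 to 81.0 and 52.1 to 60.3. Their ratio was 1.35 ± 0.164 in sham, 1.43 ± 0.0754 in ICH and 1.33 ± 0.217 in feb (SD, n = 3 each). The ratio of Gad2 to Gad1 was 2.10 ± 0.267, 2.06 ± 0.146 and 2.31 ± 0.237 (SD, n = 3 each). Both ratios overlapped between groups.

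Several of the genes lie in clusters, within which they could differ in level. On chromosome 5, Gabrg1, Gabra2, Gabra4 and Gabrb1 follow each other, with gaps of 115 kb and 474 kb and an overlap of Gabra4 and Gabrb1 by 46 exon bases on opposite strands. Their means over the 9 mice ran from 2.81 for Gabrg1 and 3.84 for Gabra2 to 10.9 for Gabra4 and 11.2 for Gabrb1. On the X chromosome, Gabre (0.482), Gabra3 (10.4) and Gabrq (1.83) lie within gaps of 158 kb and 168 kb. On chromosome 7, 20.5 kb separate Gabrg3 (2.99) from Gabra5 (6.98), and on chromosome 11, 98.7 kb separate Gabra6 (0.0848) from Gabrb2 (19.5).

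The sequence before a RefSeq transcript start (GRCm38.p6) was available for 26 of the 29 genes, without Gabrd, Glra1 and Slc12a2. That start is not always the start of the gene as counted here. The windows of Gad1, Gabrb2 and Slc6a9 lie inside the counted gene, that of Gad1 at chr2:70561879-70562128 with the gene starting at 70553072. Others, such as those of Gad2 and Slc12a5, run past the gene start. In the 250 bases before the RefSeq start, CG dinucleotides numbered from 0 to 37 with a median of 12. The median was 6 over the 32851 windows of all genes. At least 10 were present in 15 of the 26, against 37.8% of all windows. Searched on both strands, the letters GGGCGG were present in 16 of 26 against 32.7% of all, CCAAT in 11 of 26 against 33.8%, and TATAAA in 4 of 26 against 12.4%. These are matches of letters only.

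The windows of Slc6a5, Slc6a11 and Gabrr2 are shown, with CG in capitals, because these genes had a wide range between mice or a difference between groups and the CG content of their windows differs. They were chosen after the values were seen, and only bases before any annotated exon are given. They are chr7:49910049-49910145 with 5 CG, chr6:114130991-114131240 with 25 CG, and chr4:33062862-33062998 with 0 CG, all on the forward strand.

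Slc6a5: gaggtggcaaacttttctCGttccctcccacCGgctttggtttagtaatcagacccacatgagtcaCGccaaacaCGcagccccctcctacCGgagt
Slc6a11: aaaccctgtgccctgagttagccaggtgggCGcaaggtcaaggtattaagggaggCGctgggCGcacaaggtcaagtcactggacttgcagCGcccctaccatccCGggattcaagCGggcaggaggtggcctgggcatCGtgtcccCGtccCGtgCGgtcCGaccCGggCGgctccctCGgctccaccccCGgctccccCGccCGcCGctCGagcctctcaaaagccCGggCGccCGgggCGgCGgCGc
Gabrr2: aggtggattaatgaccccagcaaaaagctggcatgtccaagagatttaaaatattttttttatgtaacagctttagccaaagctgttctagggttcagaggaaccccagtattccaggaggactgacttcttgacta

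The stretches shown have 250 bases for Slc6a11, 97 for Slc6a5 and 137 for Gabrr2, so their CG counts are not compared. Over windows of equal length, 250 bases, the counts were 25, 11 and 1. The windows of Slc6a5 and Gabrr2 also take in annotated exon bases and that of Slc6a11 does not, so these counts are not of like sequence.

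Genes that act around these receptors showed small differences. Of 13 genes for breakdown, uptake and supply of the transmitters, 4 had an unadjusted p under 0.05 in ICH against sham, 1 higher and 3 lower, against 7.88% higher and 4.42% lower of all genes, and 0 in the other comparisons (lowest adjusted p 0.379, limma). Their median log2 fold change was -0.04. Abat, the transaminase that breaks down GABA, was 35.0, 35.5 and 35.7 in sham mice and 30.3, 21.5 and 31.4 in ICH mice, with a log2 fold change of -0.37 (SE 0.14, limma, adjusted p = 0.379). Slc38a1, a transporter of glutamine into neurons, was 26.3, 20.3 and 25.1 against 19.6, 14.3 and 19.7, with -0.42 (SE 0.16, limma, adjusted p = 0.379). Aldh5a1, which acts after Abat in GABA breakdown, was 15.9, 16.5 and 16.1 against 14.5, 11.6 and 15.0, with -0.25 (SE 0.10, limma, adjusted p = 0.390). In these 3 genes every ICH mouse was below every sham mouse, as in 6.22% of all genes, and ICH 2, where Slc6a11 was lowest, was the lowest of the 9 mice. Gldc, which breaks down glycine, was the gene of the list that was higher, at 6.40, 3.50 and 4.25 in ICH against 2.12, 4.15 and 2.89 in sham, with overlap and a log2 fold change of 0.62 (SE 0.27, limma, adjusted p = 0.402). It is outside the naming rule and was added after its values were seen.

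Of 8 genes for partners of the GABA-B receptor, 1 passed in ICH against sham, where 12.3% of all genes did. Kcnj6, a potassium channel subunit that the receptor opens, was higher in ICH, at 7.27, 7.47 and 6.23 against 5.04, 4.18 and 5.84 in sham, with a log2 fold change of 0.48 (SE 0.14, limma, adjusted p = 0.345). No other gene of that list passed the unadjusted threshold in any comparison. Of 17 genes measured for scaffold and receptor trafficking, 0 passed in ICH against sham or feb against sham. In feb against ICH, where 4.90% of all genes were higher and 6.16% lower, 1 was higher, Lhfpl4, a partner of GABA-A receptors at synapses (log2 fold change 0.21, SE 0.08, limma, adjusted p = 0.417), and 2 were lower, Trak2 and Clptm1, which act in transport and forward trafficking (-0.36, SE 0.15, adjusted p = 0.421, and -0.20, SE 0.08, adjusted p = 0.429).

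Of 11 genes for chloride cotransport and its kinases, 0 passed in ICH against sham, 2 in feb against ICH and 3 in feb against sham. Of all genes 12.3%, 11.1% and 8.54% passed in these comparisons. Wnk2, a kinase of the family that regulates the chloride cotransporters, was 28.8 ± 1.16 in feb, 23.5 ± 2.84 in ICH and 23.5 ± 1.65 in sham (SD, n = 3 each). The lowest feb mouse, at 27.7, was above the highest of the other mice, at 25.5, with log2 fold changes of 0.30 from ICH (SE 0.10, limma, adjusted p = 0.369) and 0.29 from sham (SE 0.10, adjusted p = 0.565).

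Slc12a4, a potassium and chloride cotransporter of many cell types, was lower in feb, with -0.35 from ICH (SE 0.15, limma, adjusted p = 0.447) and -0.42 from sham (SE 0.15, adjusted p = 0.565). Feb and ICH overlapped, with feb 2 at 3.77 and ICH 1 at 3.67. Every feb mouse was below every sham mouse, as in 4.90% of all genes. Wnk1, of the same kinase family as Wnk2, was lower in feb than in sham, with a log2 fold change of -0.32 (SE 0.12, limma, adjusted p = 0.565). Its values overlapped those of sham.

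**Figure D5:**
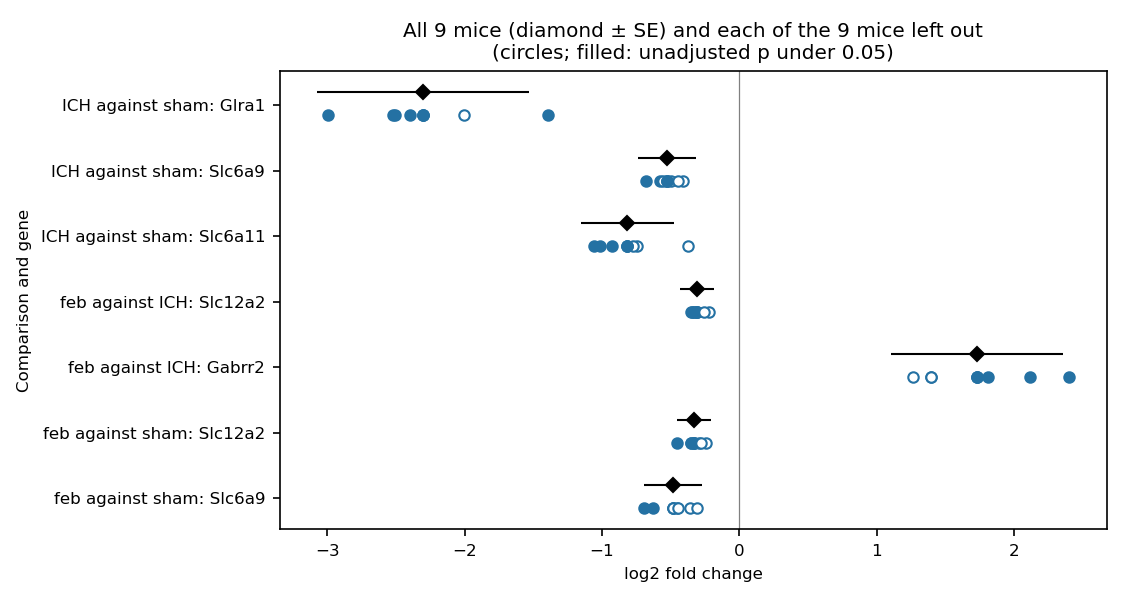
Log2 fold change ± SE with all 9 mice (diamonds) and with each mouse left out in turn (circles, filled where the unadjusted p by limma was under 0.05) for the 7 member results with an unadjusted p under 0.05. No circle crosses 0, and each result has at least 1 open circle.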

How the data were processed

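RNA of brain tissue from 9 mice (3 sham, 3 ICH, 3 feb) was sequenced with UMIs after rRNA depletion. The authors trimmed reads (Trimmomatic 0.36 per the labels), formed consensus reads per UMI, aligned them to GRCm38, counted exons with featureCounts (Subread 1.5.1) and deposited RPKM values. Strand use, annotation release and how multi-mapping reads were handled are not given in the sources used here. Because the deposited RPKM values were whole multiples of 1 read (100% of values, tolerance 0.05 read), reads per gene were recovered. With 3 mice per group, the p-values set a difference between groups against the spread between mice, estimated over all 3 groups.

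The test was limma 3.58.1 (R 4.3.3; lmFit, eBayes with trend) on log2(RPKM + 0.1) for genes reaching an RPKM of 0.1 in 3 or more mice, with all 9 mice in the same fit and no block, tested on simulated data. The added 0.1 makes fold changes of low genes smaller than their RPKM ratios. Adjusted p-values are Benjamini-Hochberg values. The genes described, the pathway and marker lists and the naming rule (members with an unadjusted p under 0.05, and at most 3 genes of each pathway list and comparison with the lowest p) were chosen with earlier results of these data known. The pathway gene Insyn1 was not found under that name. Single genes of a marker list and of a pathway list are not reported here and were left out of their counts and sums. Alternatives were pseudocounts, filters, scalings, a 2-group fit, no trend, a replicate block, each mouse left out, and, chosen after seeing the data, voom on the recovered reads and a filter of 10 reads. Genes overlapping on the opposite strand were found with the exon coordinates deposited beside the RPKM values. A GENCODE annotation of GRCm38 gave the Gm12236 transcript and the coding part of Glra1. Python 3.11.15 made the tables.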

Additional observations from a re-analysis of the deposited data

How the results depend on the processing

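None of the 7 member results with an unadjusted p under 0.05 changed sign under any alternative run. Other single genes are not summarized over all the alternatives here. The count of genes called over all genes in ICH against sham, feb against ICH and feb against sham was 158, 128 and 91 with a pseudocount of 1, 346, 287 and 263 with an RPKM of at least 1, and 371, 321 and 281 with at least 10 recovered reads, where fewer genes are tested in the last 2. Leaving out each mouse gave 619 to 1299, 615 to 932 and 462 to 1150 genes called, the highest without sham 2 (1299 and 1150). Members with an unadjusted p under 0.05 numbered 0 to 5, 0 to 4 and 0 to 5 as each mouse was left out, and the 0 in ICH against sham came without ICH 2. In feb against ICH they numbered 1 with an RPKM of at least 1, where Gabrr2 was not tested, 1 with equal medians and 4 in the 2-group fit, where Glra1 and Gad1 joined. In feb against sham they numbered 4 with equal medians, 1 with quantile normalization and 0 without a trend. The causes were not tested. Equal medians turned the split of called genes in ICH against sham from 423 higher and 312 lower to 296 and 443, and quantile normalization to 317 and 406. In feb against sham 461 higher and 178 lower became 300 and 252, and 295 and 245. Equal medians moved the median log2 fold change of all genes from 0.08 to -0.03 and from 0.05 to -0.06 in these comparisons. With voom on the recovered reads 1, 1 and 0 of the 27 genes were called, and the lowest adjusted p was 0.309, 0.374 and 0.526. Glra1 in ICH against sham passed the unadjusted threshold in 19 of 20 alternatives, with log2 fold changes from -2.99 to -1.39 and adjusted p by limma from 0.109 to 0.733, and Slc6a9 in feb against sham in 9 of 20. Gabrr2 in feb against ICH passed in 16 of 19, with log2 fold changes from 0.78, with a pseudocount of 1, to 2.41. At 5 to 102 reads its level has wide counting error.

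That replicate numbers are shared between groups is known from the labels only. Deviations of same-numbered mice from their group means had correlations across genes from -0.13 to 0.02. Mice with different numbers were not compared, so these correlations cannot tell whether same-numbered mice were handled together. With the replicate block the genes called numbered 717, 684 and 615 and the members with an unadjusted p under 0.05 were 3, 2 and 2. Gabra2 (higher) joined in ICH against sham and Gabrr2 (higher, called) in feb against sham, while Slc6a9 missed the threshold in ICH against sham (log2 fold change -0.53, unadjusted p = 0.0589, limma) and in feb against sham (-0.48, unadjusted p = 0.0783, limma).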
